A study of Macaca mulatta with 45 samples.

Results

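Late changes in gene expression after irradiation of the whole brain were examined in the dorsolateral prefrontal cortex (Brodmann area 46) of rhesus macaques, by setting the 5 libraries of fWBI animals against the 5 libraries of control animals over all measured genes. The libraries were chosen by their labels, and the 10 were part of 45 in the series. In the fWBI group the whole brain had been irradiated in fractions, 8 of 5 Gy to a sum of 40 Gy, and animals were necropsied 12 months later. A further group of 5 animals, TBI, had received 1 total body dose of 6.75, 7.2 or 8.05 Gy and was necropsied 6 to 9 years later. Control animals were not unirradiated: they had received 10 Gy to the thorax, with a labelled dose to the brain of 0.1 Gy. Each animal gave 1 library of ribosome-depleted total RNA from prefrontal cortex, 1 from hippocampus and 1 from deep white matter, so that the replicates within a group were separate animals. The labels used here do not give the age or sex of the animals, and neither could be compared between the groups.

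Irradiation of the whole brain is used against brain metastases, and its late effects include loss of memory and of executive function, for which the dorsolateral prefrontal cortex is needed. Oligodendrocyte precursor cells divide throughout adult life and renew myelin. Microglia are the resident macrophages of the brain; in the resting state they carry receptors such as P2RY12, and when activated they, like macrophages that enter from the blood, show MHC class II molecules, which present peptides to CD4 T cells. Fibroblasts lie around the larger vessels and in the meninges and make fibrillar collagens, which normal cortex holds little of.

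Read counts summed to between 9270326 and 10795679 per fWBI library and between 6625435 and 10685965 per control library. Genes with a symbol held 76.2% of the counts of fWBI animal 4, the lowest share of the 45 libraries. The other fWBI libraries were at 80.2 to 83.3% and the control libraries at 80.8 to 83.1%. CPM is the count of a gene scaled by the library's total, which edgeR had adjusted by TMM scaling. The mean level of 15 pan-neuronal genes over the 15 prefrontal cortex libraries was 8.58 to 8.9 log2 CPM, against 8.21 to 8.59 in hippocampus, ranges that met. That of 8 myelin genes was 4.64 to 6.6, against 9.59 to 10.79 in white matter, so the libraries carried markers of grey matter. Fold changes below are on the log2 scale, fWBI over control, with their standard error (SE), n = 5 animals each. Values joined by ± to a fold change are that SE, and those joined to a mean CPM are the standard deviation (SD) over 5 animals. A gene is said to have risen or fallen where its p by the quasi-likelihood test of edgeR, adjusted over all 15531 genes tested after Benjamini and Hochberg, was under 0.05. CPM values are not divided by gene length and are compared between libraries, not between genes.

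Of the 15531 genes tested 182 changed (1.17%), 125 of them higher (0.805%) and 57 lower (0.367%) in fWBI. The median fold change over all genes tested was -9.4e-05. At an unadjusted p under 0.05 in the same test 2109 genes differed (13.6%), the share to set beside the list counts below. Among the genes that rose the median was 1.18 and 80 rose by more than 1, while among those that fell the median was -1.09 and 30 fell by more than 1. For 161 of the 182 the 5 fWBI libraries did not overlap the 5 control libraries. Over all genes tested 347 lay above (2.23%) and 202 below every control library (1.3%). The 182 were picked by the difference between these same libraries, so their lack of overlap is no separate evidence. The genes that rose included markers of macrophages, MHC class II genes, markers of reactive astrocytes and extracellular matrix genes, and those that fell included markers of oligodendrocyte precursors and of resting microglia. The number of calls depended on single libraries: it was 73 without control animal 3, 90 without fWBI animal 2, 100 without fWBI animal 3, 107 without fWBI animal 1 and 117 without control animal 5. In all, 59 genes passed the threshold in each of the 10 fits that left out 1 fWBI or control library, 41 of them higher and 18 lower. DESeq2 called 466 genes and limma-voom 387.

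**Figure D1:**
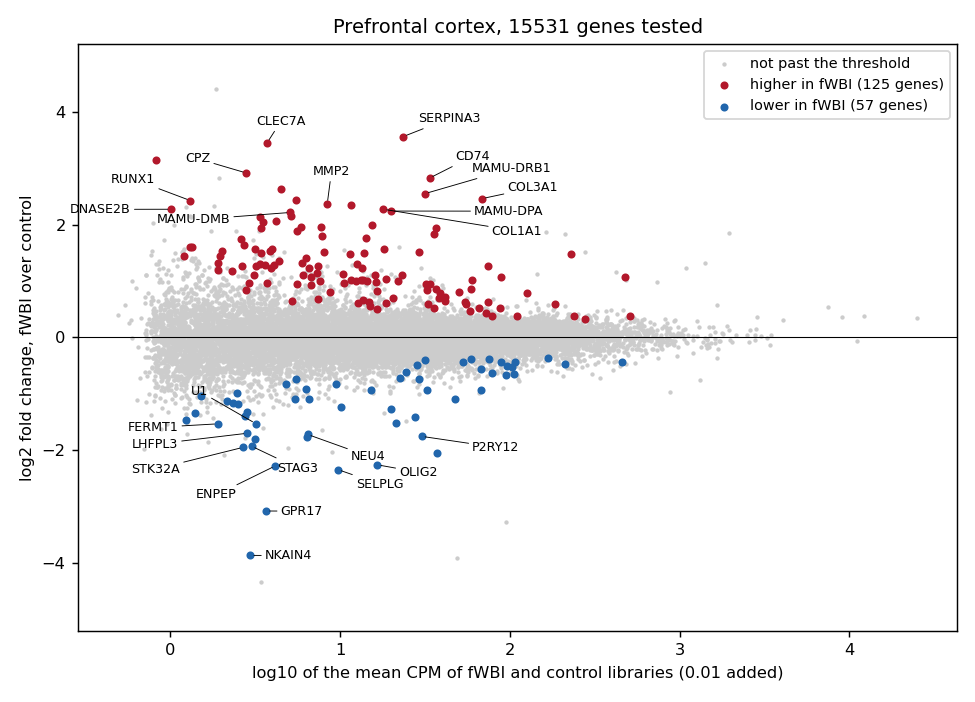
Log2 fold change of fWBI over control (vertical axis) against the log10 mean CPM of the 10 libraries (horizontal axis) for the 15531 genes tested in prefrontal cortex; each point is a gene, coloured where it passed the threshold. The 125 genes that rose reach 3.56 (SERPINA3) and the 57 that fell reach -3.86 (NKAIN4).

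Genes that mark oligodendrocyte precursors were among the clearest falls. Of 19 tested members of this list 5 fell and 0 rose, 11 were lower at an unadjusted p under 0.05, 6 lay below every control library (1.3% of all genes did), and the list's median was -0.88. OLIG2, the transcription factor that specifies the oligodendrocyte lineage, was at 7.49, 5.42, 4.93, 5.71 and 5.07 CPM in fWBI animals 1 to 5, against 27.4, 31.3, 27.8, 27.0 and 23.6 CPM in control animals 1 to 5. All 5 fWBI libraries were thus below 8 CPM and all 5 control libraries above 23, a fold change of -2.26 ± 0.16 (adjusted p = 1.68e-06). GPR17, a receptor of committed precursors on their way to becoming myelinating cells, was at 0.947, 0.561, 0.651, 0.714 and 0.950 CPM in fWBI animals, against 9.11, 4.41, 7.81, 6.90 and 4.49 CPM in control animals. Every fWBI library held under 1 CPM of it and the groups lay far apart (-3.08 ± 0.26, adjusted p = 7.55e-06). The protocadherin PCDH15, a surface marker of precursors, fell less (-0.93 ± 0.11, adjusted p = 0.000197), to 11.6, 8.88, 10.3, 10.0 and 11.4 CPM in fWBI animals, against 18.6, 20.1, 22.6, 18.9 and 19.4 CPM in control animals, again with no overlap. LHFPL3, a tetraspan membrane protein enriched in precursors, averaged 1.33 ± 0.385 CPM in fWBI and 4.33 ± 0.446 CPM in control animals, a fold change of -1.70 ± 0.24 (adjusted p = 0.00141). VCAN, the matrix proteoglycan versican, which precursors secrete and which monocytes also make, fell as well (-0.93 ± 0.18, adjusted p = 0.0155); its adjusted p was 0.0532 at the highest and missed the threshold without fWBI animal 3 or without control animal 3.

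The list did not move as 1 block. PDGFRA, the growth factor receptor most used to define precursors, averaged 106 ± 16.1 CPM in fWBI and 99.6 ± 18.0 CPM in control animals (0.086 ± 0.14, adjusted p = 0.826). CSPG4, the NG2 proteoglycan, averaged 7.57 ± 2.56 CPM in fWBI and 13.9 ± 6.55 CPM in control animals and did not pass the threshold (-0.88 ± 0.30). The mean level of the 19 genes was 3.88 to 4.26 log2 CPM in fWBI libraries, against 4.61 to 5.16 in control libraries. The lowest control library thus lay above the highest fWBI library. This mean includes the members that fell in these same libraries, and whether the groups lie apart without them was not tested. In RNA of whole tissue, fewer cells of a type and less RNA per cell cannot be told apart.

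Genes of mature myelin were lower in mean but varied widely between control animals. All 8 tested members of the myelin list had a negative fold change, the median was -0.55, and 0 passed the threshold in edgeR, DESeq2 or limma-voom, with 1 lower at an unadjusted p under 0.05. MBP, which codes for myelin basic protein, was at 969, 404, 512, 601 and 494 CPM in fWBI animals, against 1483, 1970.0, 1331, 716 and 328 CPM in control animals. Control animal 5 lay below all fWBI animals, and control animals 1 to 3 lay above them (-0.97 ± 0.38, adjusted p = 0.274). The list's level was 4.89 to 6.13 log2 CPM in fWBI and 4.63 to 6.59 in control libraries. The part of this spread in the other results was not tested beyond a fit in which it was held constant: with this level as a covariate, OLIG2, GPR17, PCDH15, LHFPL3 and VCAN each still passed the threshold. Of the 51 changed genes named by the rule given with the methods, 10 did not pass with that covariate, namely FERMT1, TLR2, TIMP4, CD4, NTNG2, ARC, NGFR, SLC40A1, GPX1 and NPC2, whose values follow.

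Of the 7 tested genes of resting microglia 2 fell and 0 rose, with a median of -0.41. P2RY12, the purine receptor by which resting microglia sense injury, was at 12.5, 15.7, 13.2, 16.0 and 11.5 CPM in fWBI animals, against 48.4, 43.1, 42.3, 45.7 and 53.4 CPM in control animals. The highest fWBI library was at less than 20 CPM and the lowest control library above 42 (-1.75 ± 0.18, adjusted p = 5.96e-05). SELPLG, a P-selectin ligand of leukocytes that is also a marker of resting microglia in mice, was at 4.07, 2.90, 2.51, 3.16 and 3.27 CPM in fWBI animals, against 17.6, 19.6, 13.2, 14.4 and 16.1 CPM in control animals, with no overlap (-2.34 ± 0.22, adjusted p = 3.01e-05). The growth factor receptor CSF1R, on which microglia depend, had a fold change of 0.33 ± 0.18 (adjusted p = 0.436), so the members of the list did not share a direction. The mean level of the 7 genes was 4.19 to 4.31 log2 CPM in fWBI libraries, against 4.68 to 4.97 in control libraries. This mean includes P2RY12 and SELPLG, and whether the groups lie apart without them was not tested. Of the 7 genes 4 had a negative and 3 a positive fold change.

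**Figure D2:**
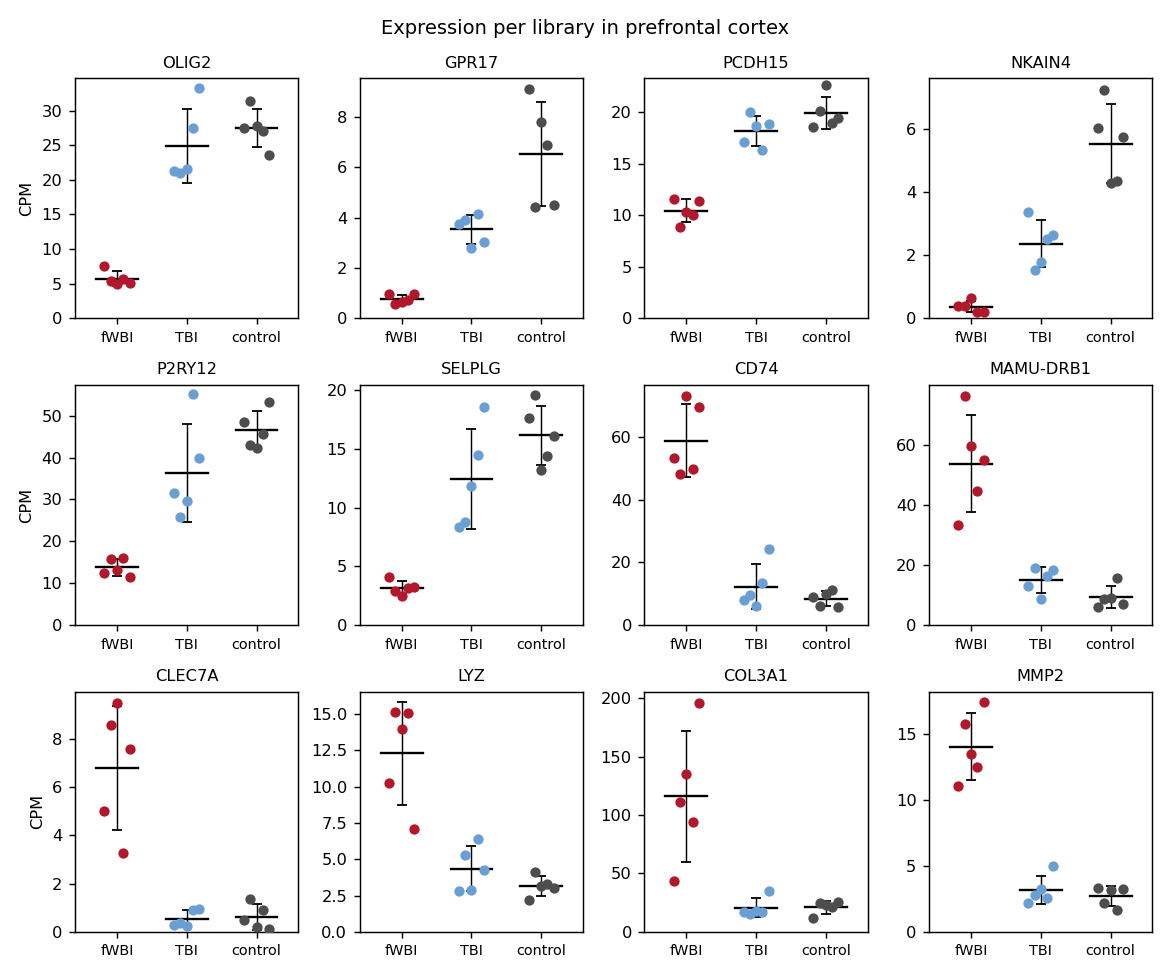
CPM (vertical axis) of 12 genes in each prefrontal cortex library of fWBI, TBI and control animals; points are animals, the thick line is the mean and the bar the SD (n = 5). In the 12 panels the fWBI points lie apart from the control points: below them for OLIG2, GPR17, PCDH15, NKAIN4, P2RY12 and SELPLG, and above them for CD74, MAMU-DRB1, CLEC7A, LYZ, COL3A1 and MMP2.

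Genes of activated and lipid-laden macrophages and microglia were higher in part. Of 16 tested members 2 rose and 0 fell, 9 were higher at an unadjusted p under 0.05, and the median was 0.34. CLEC7A (dectin-1), a receptor for fungal glucans induced on activated microglia, was at 5.02, 8.60, 9.48, 3.27 and 7.60 CPM in fWBI animals, against 0.492, 1.37, 0.191, 0.899 and 0.115 CPM in control animals. The lowest fWBI library was thus above the highest control library (3.45 ± 0.48, adjusted p = 0.00148). MSR1, the macrophage scavenger receptor, averaged 5.48 ± 1.35 CPM in fWBI and 1.26 ± 0.867 CPM in control animals (2.12 ± 0.39, adjusted p = 0.0133). Its adjusted p ran from 0.0125 to 0.0537 over the 10 fits without 1 library and missed the threshold without control animal 3. GPNMB averaged 27.2 ± 6.98 CPM in fWBI and 12.4 ± 11.1 CPM in control animals and overlapped (1.12 ± 0.48, adjusted p = 0.317), and APOE, the lipid carrier, had a fold change of 0.35 ± 0.13 (adjusted p = 0.248).

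Markers of monocytes and of macrophages around vessels moved further, with 4 of 9 tested members higher, 1 lower (VCAN, counted above among precursor genes), 7 members above all control libraries (2.23% of all genes were) and a median of 0.87. CD14, the co-receptor for bacterial lipopolysaccharide, was at 18.6, 31.3, 22.2, 28.9 and 21.6 CPM in fWBI animals, against 3.57, 7.64, 2.38, 9.29 and 8.28 CPM in control animals. Every fWBI library held at least 18 CPM and no control library reached 10 (1.99 ± 0.29, adjusted p = 0.00266). LYZ, the lysozyme of monocytes, was at 10.2, 15.1, 13.9, 15.1 and 7.07 CPM in fWBI animals, against 2.22, 4.11, 3.14, 3.30 and 2.99 CPM in control animals (1.96 ± 0.27, adjusted p = 0.00132). The perivascular macrophage receptors STAB1 (0.86 ± 0.17, adjusted p = 0.0217) and SIGLEC1 (1.32 ± 0.26, adjusted p = 0.0212) rose too. STAB1 missed the threshold without fWBI animal 2 (highest adjusted p 0.0697) or control animal 3, and SIGLEC1 (highest 0.0626) without fWBI animal 3 or 5 or control animal 3 or 5. CD163 and MRC1, the haemoglobin and mannose receptors of the same cells, had fold changes of 0.94 ± 0.26 and 0.66 ± 0.16 and did not pass, although for both the groups did not overlap. The mean level of the 9 genes was 4.47 to 4.85 log2 CPM in fWBI libraries, against 3.22 to 3.86 in control libraries. It includes the members that passed, and whether the groups lie apart without them was not tested.

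Genes of MHC class II showed some of the widest gaps between the groups. Of 9 tested genes of MHC class II and antigen presentation 4 rose and 0 fell, with a median of 0.93. CD74, the invariant chain that guides class II molecules to the endosome, was at 53.3, 48.3, 73.2, 49.99 and 69.7 CPM in fWBI animals, against 8.86, 6.17, 10.0, 11.1 and 5.64 CPM in control animals. The lowest fWBI library held over 4 times as much as the highest control library (2.82 ± 0.31, adjusted p = 0.000140). MAMU-DRB1, a beta chain of the macaque class II molecule DR, was at 33.2, 76.4, 59.8, 44.7 and 55.1 CPM in fWBI animals, against 6.16, 8.52, 9.14, 15.6 and 7.02 CPM in control animals (2.55 ± 0.27, adjusted p = 0.000116). MAMU-DPA, the alpha chain of DP, was at 33.2, 34.9, 32.7, 35.4 and 27.4 CPM in fWBI animals, against 4.43, 4.60, 5.05, 15.6 and 5.75 CPM in control animals. Control animal 4 held about 3 times as much as the other control animals, yet less than any fWBI animal (2.24 ± 0.41, adjusted p = 0.0133). Its adjusted p ran from 0.00277 to 0.0540 over the fits without 1 library and missed the threshold without control animal 3. MAMU-DMB, part of the DM complex that loads peptides, averaged 8.35 ± 1.82 CPM in fWBI and 1.79 ± 0.463 CPM in control animals (2.21 ± 0.31, adjusted p = 0.00148). CIITA, the transactivator of class II genes, had a fold change of 0.93 ± 0.42 and did not pass (adjusted p = 0.352). Near-identical MHC copies can share reads, so the level of any 1 of these class II genes is uncertain. Of the MHC class I list 0 of 9 tested members were past the threshold in edgeR, with 2 higher at an unadjusted p under 0.05, 1 called by DESeq2 and 0 by limma-voom, and the median was 0.12. TAPBP, which helps load class I molecules, and PSMB8, an immunoproteasome subunit, had fold changes of -0.12 ± 0.19 and 0.51 ± 0.22.

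Complement and innate receptor genes rose in small numbers. Of 11 complement genes 2 rose, namely CFB, factor B of the alternative pathway (1.52 ± 0.28, adjusted p = 0.0129), and C3AR1, the receptor for the C3a fragment (1.29 ± 0.23, adjusted p = 0.0129). CFB averaged 11.9 ± 2.26 CPM in fWBI and 4.12 ± 1.62 CPM in control animals, and its adjusted p of 0.00719 to 0.0513 in the fits without 1 library missed the threshold without control animal 3. C3 itself, the central complement protein, averaged 19.3 ± 4.92 CPM in fWBI and 38.7 ± 4.86 CPM in control animals (a fold change of -1.0 with an SE of 0.25, adjusted p = 0.0625), and C1QC, a chain of C1q, averaged 41.0 ± 4.39 CPM in fWBI and 21.6 ± 6.74 CPM in control animals (0.92 ± 0.23, adjusted p = 0.0641). Neither passed, although in both the groups did not overlap. Of 10 Fc receptor and inflammasome genes 2 rose: CYBB, the catalytic subunit of the phagocyte NADPH oxidase (1.11 ± 0.17, adjusted p = 0.00326), and TLR2, a receptor for bacterial lipoproteins (1.26 ± 0.27, adjusted p = 0.0325). TLR2 passed only without fWBI animal 5 or without control animal 2 among the fits that left out 1 library (highest adjusted p 0.0871). Of 14 cytokine, chemokine and receptor genes 1 rose, CXCR4, the receptor for CXCL12 (1.29 ± 0.22, adjusted p = 0.00891). In a fit over all 45 libraries CXCR4 missed the threshold (adjusted p = 0.0596), as did TLR2 with the myelin covariate (adjusted p = 0.0507). Of 14 interferon-stimulated genes 0 passed in edgeR, 5 were higher at an unadjusted p under 0.05, DESeq2 called 2 and limma-voom 1, and the median was 0.38. IFI6 was at 90.1, 93.8, 92.9, 144 and 71.5 CPM in fWBI animals, against 71.3, 123, 96.2, 114 and 103 CPM in control animals, and the groups overlapped throughout; IFI27 had a fold change of 0.93 ± 0.38 (adjusted p = 0.295).

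The T and natural killer cell list had 13 genes in the table, of which 8 had too few counts to be tested, and 1 of the 5 tested rose. This was CD4, a co-receptor that in primates is found on T helper cells and also on monocytes and macrophages (20.3 ± 2.92 CPM in fWBI and 7.21 ± 4.10 CPM in control animals; 1.49 ± 0.33, adjusted p = 0.0396). CD4 passed only without control animal 3 or without control animal 4 among the fits that left out 1 library (highest adjusted p 0.0872). It also missed the threshold with the 2 groups alone (0.0734), over all 45 libraries (0.193) and with the myelin covariate (0.0644). None of the 4 measured blood cell genes had enough counts to be tested.

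**Figure D3:**
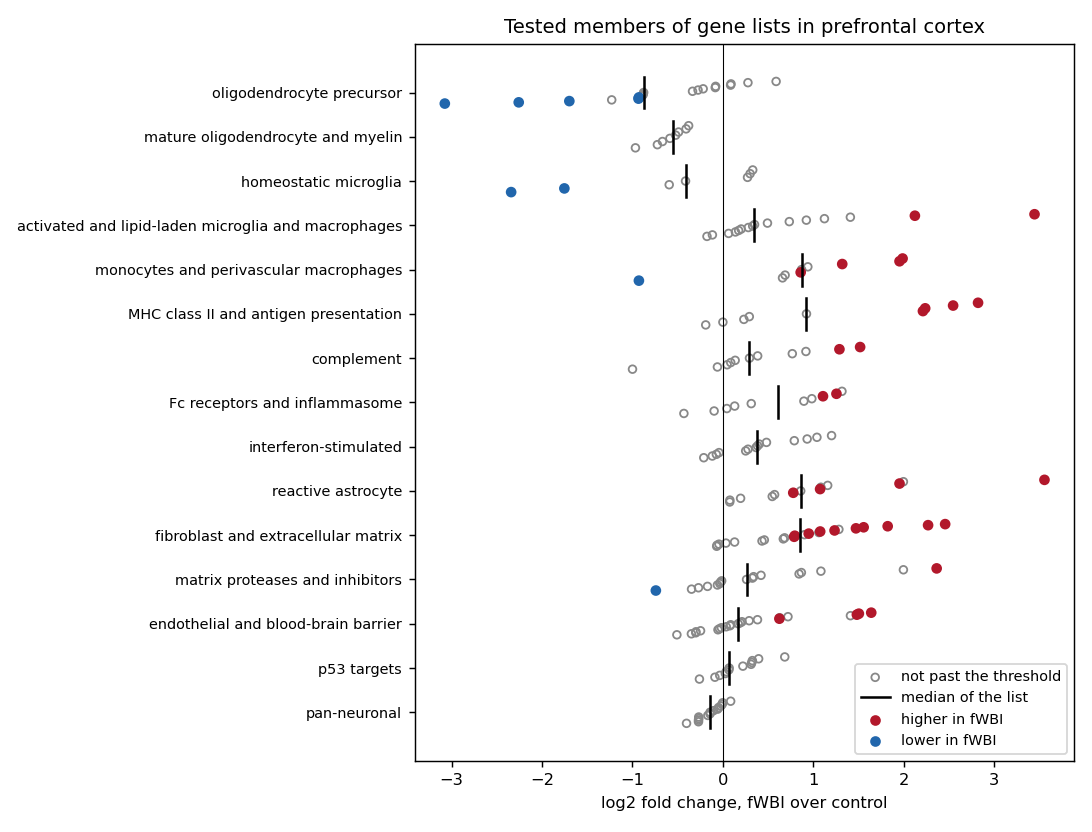
Log2 fold change of fWBI over control (horizontal axis) for each tested member of 15 gene lists (rows); filled points passed the threshold, open points did not, and the bar is the list's median. Medians lie at -0.88 for oligodendrocyte precursor genes, 0.93 for MHC class II, 0.86 for reactive astrocyte and 0.85 for fibroblast and matrix genes, and at 0.07 for p53 targets and -0.14 for pan-neuronal genes.

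Reactive astrocyte genes were higher. All 13 tested members had a positive fold change, 4 rose, and the median was 0.86. SERPINA3, a secreted serine protease inhibitor induced in reactive astrocytes, was at 32.9, 78.8, 47.0, 25.6 and 32.6 CPM in fWBI animals, against 1.72, 7.54, 2.57, 3.90 and 2.42 CPM in control animals. This was the largest rise among the genes tested that passed (3.56 ± 0.64, adjusted p = 0.0125), with no overlap; without control animal 3 its adjusted p was 0.0509, the highest of a range from 0.0123 to 0.0509. GFAP, the intermediate filament that defines astrocytes, was at 618, 788, 519.6, 569 and 726 CPM in fWBI animals, against 338, 383, 280.0, 304 and 222 CPM in control animals (1.08 ± 0.21, adjusted p = 0.0159). Here too every fWBI library exceeded every control library, and the adjusted p, 0.0149 to 0.0584 in the fits without 1 library, missed the threshold without fWBI animal 2 or control animal 3. CD44, the hyaluronan receptor, rose (1.96 ± 0.41, adjusted p = 0.0285), as did VIM, the filament protein vimentin (0.78 ± 0.18, adjusted p = 0.0457). CD44 passed only without fWBI animal 4 or control animal 2, and VIM only without control animal 2, 4 or 5, among the fits that left out 1 library (highest adjusted p 0.0743 and 0.124). The homeostatic astrocyte list had a median of 0.14 and 1 of 12 members higher: AQP4, the water channel of astrocyte endfeet, at 222 ± 30.9 CPM in fWBI and 147 ± 26.7 CPM in control animals (0.60 ± 0.14, adjusted p = 0.0489), which of these fits passed only in the one without control animal 2 (highest adjusted p 0.127). AQP4 also missed it with the 2 groups alone (0.0905) and over all 45 libraries (0.101). The glutamate transporters of astrocytes, SLC1A2 and SLC1A3, had fold changes of 0.12 ± 0.19 and 0.25 ± 0.10 and did not pass.

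Extracellular matrix genes formed the list with the most calls. Of 22 tested fibroblast and matrix genes 10 rose and 0 fell, 12 lay above every control library, and the median was 0.85. COL3A1, a fibrillar collagen of vessel walls and scars, was at 43.8, 112, 136, 93.7 and 196 CPM in fWBI animals, against 11.7, 24.7, 22.7, 21.0 and 25.2 CPM in control animals. The fWBI animals differed widely, yet the lowest, animal 1, was above all control animals (2.46 ± 0.34, adjusted p = 0.00132). COL1A1, the main fibrillar collagen of fibroblasts, was at 16.7, 25.9, 33.6, 24.6 and 48.4 CPM in fWBI animals, against 4.31, 6.75, 6.48, 4.05 and 8.97 CPM in control animals (2.27 ± 0.43, adjusted p = 0.0142; 0.0136 to 0.0516 in the fits without 1 library, above the threshold without control animal 3). FN1, fibronectin, was at 264, 358, 407, 291 and 356 CPM in fWBI animals, against 133, 114, 149, 76.3 and 132 CPM in control animals, and rose by 1.47 ± 0.22 (adjusted p = 0.00326). COL18A1, a collagen of vascular basement membranes and the source of endostatin, rose by 1.24 ± 0.19 (adjusted p = 0.00326) but missed the threshold over all 45 libraries (adjusted p = 0.0998). The 6 other members that rose, named after their values were seen, were COL6A3 (1.56 ± 0.28), the small proteoglycans LUM (1.82 ± 0.38) and DCN (1.08 ± 0.22), and the basement membrane genes NID1 (0.95 ± 0.20), LAMA2 (0.80 ± 0.18) and COL4A1 (0.79 ± 0.18). COL6A3 passed in each fit without 1 library. LUM did not pass without fWBI animal 2 or 5 or control animal 3 or 5, nor DCN without fWBI animal 2 or 5 or control animal 3. LAMA2 passed only without fWBI animal 4, and NID1 and COL4A1 only without fWBI animal 1 or 4 or control animal 1, among those fits. The highest adjusted p was 0.0768 for LUM, 0.0803 for DCN, 0.106 for LAMA2, 0.0743 for NID1 and 0.101 for COL4A1. The mean level of the 22 genes was 4.80 to 5.60 log2 CPM in fWBI libraries, against 4.18 to 4.40 in control libraries. It includes the members that rose, and whether the groups lie apart without them was not tested.

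Of 17 tested matrix proteases and inhibitors 1 rose and 1 fell, with a median of 0.26. MMP2, a gelatinase that cleaves basement membrane collagen, was at 11.1, 15.8, 13.5, 12.6 and 17.4 CPM in fWBI animals, against 3.32, 2.15, 3.14, 1.65 and 3.22 CPM in control animals. The lowest fWBI library held over 3 times as much as the highest control library (2.37 ± 0.23, adjusted p = 4.47e-05). TIMP4, an inhibitor of such proteases, fell (4.12 ± 0.554 CPM in fWBI and 6.89 ± 1.31 CPM in control animals; -0.74 ± 0.17, adjusted p = 0.0499), and among the fits that left out 1 library it passed only without fWBI animal 5 (highest adjusted p 0.130). TIMP4 also missed the threshold without a filter (0.0906), with the 2 groups alone (0.0893), over all 45 libraries (0.132) and with the myelin covariate (0.0974).

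Of 23 tested endothelial and barrier genes 4 rose and 0 fell, and the median was 0.17. VCAM1, the adhesion molecule by which vessels hold leukocytes, was at 50.02, 41.3, 47.9, 31.5 and 44.7 CPM in fWBI animals, against 23.0, 14.5, 10.5, 17.5 and 10.7 CPM in control animals (1.505 ± 0.20, adjusted p = 0.000968), with no overlap. CD93, a lectin-like receptor of endothelium and of myeloid cells, averaged 16.9 ± 2.86 CPM in fWBI and 6.01 ± 1.04 CPM in control animals (1.48 ± 0.28, adjusted p = 0.0142). OCLN, the tight junction protein occludin, averaged 17.9 ± 1.51 CPM in fWBI and 11.6 ± 0.730 CPM in control animals (0.63 ± 0.11, adjusted p = 0.0129; 0.0164 to 0.0509 in the fits without 1 library, above the threshold without control animal 3, and 0.115 over all 45 libraries). The fourth, CLEC1A, a C-type lectin, rose by 1.64 ± 0.36 (adjusted p = 0.0352) and passed only without fWBI animal 5 or control animal 2 among those fits (highest adjusted p 0.102). The general endothelial genes CDH5 and PECAM1 had fold changes of 0.38 ± 0.23 and 0.72 ± 0.20 and did not pass. Of 11 pericyte and smooth muscle genes 0 passed in edgeR, with 4 higher and 1 lower at an unadjusted p under 0.05, 1 called by DESeq2 and 2 by limma-voom. PDGFRB, the pericyte growth factor receptor, averaged 51.6 ± 7.07 CPM in fWBI and 40.6 ± 16.6 CPM in control animals, and RGS5 averaged 251 ± 45.2 CPM in fWBI and 170.5 ± 30.4 CPM in control animals (0.56 ± 0.15, adjusted p = 0.0907).

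**Figure D4:**
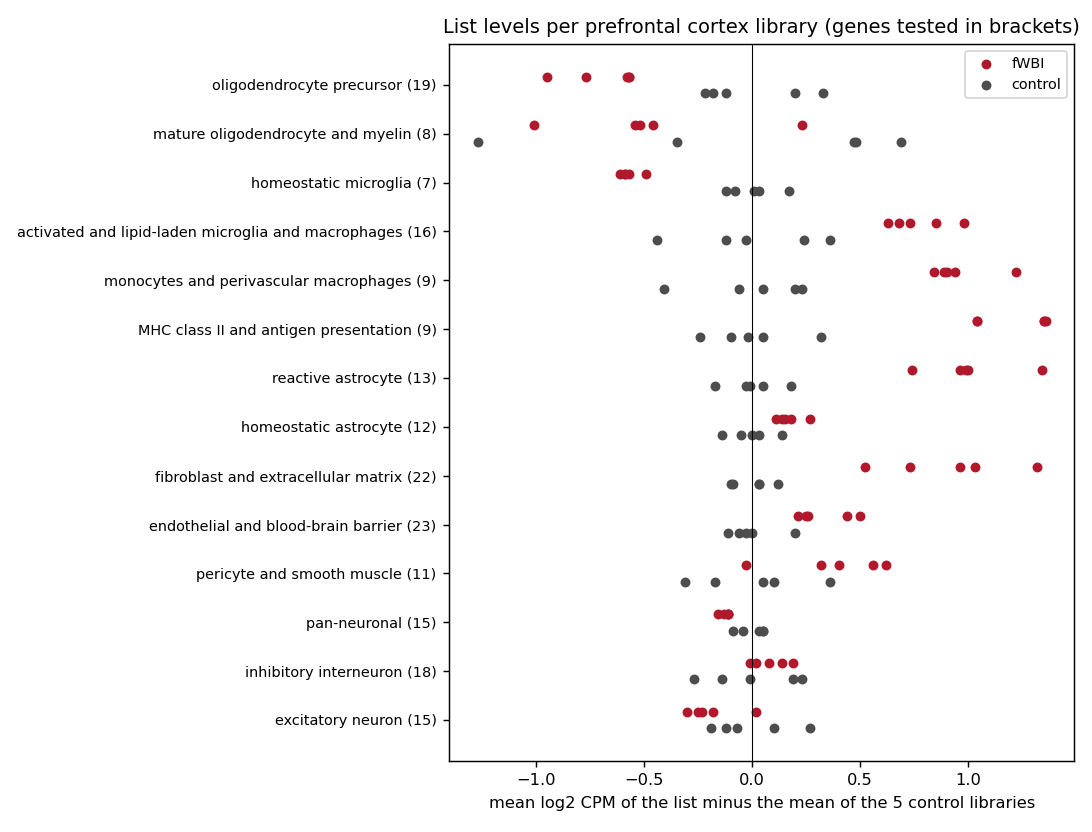
Mean log2 CPM of the tested genes of 14 lists in each fWBI and control library, less the mean of the 5 control libraries (horizontal axis); each point is an animal. The fWBI points lie below the control points for oligodendrocyte precursor genes (3.88 to 4.26 in fWBI, against 4.61 to 5.16 in control before the subtraction). They lie above them for fibroblast and matrix genes (4.80 to 5.60, against 4.18 to 4.40). For myelin the points overlap (4.89 to 6.13, against 4.63 to 6.59). The precursor and matrix means include members that passed the threshold in these same libraries.

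The neuronal lists each had 0 or 1 member past the threshold. Over all genes tested 1.17% passed, so these counts do not show that neuronal genes were spared. Receptor and channel genes outside these lists changed too, and those given here were named after their values were seen. The acetylcholine receptor subunit CHRNA4 (-1.77 ± 0.39, adjusted p = 0.0346) and the potassium channel KCNH3 (-0.47 ± 0.10, adjusted p = 0.0359) fell, both with overlap between the groups. The potassium channel KCNC2 rose (0.32 ± 0.076, adjusted p = 0.0489). How these fared without 1 library is not given here. Of 15 pan-neuronal genes 0 passed in edgeR, 1 was lower at an unadjusted p under 0.05, DESeq2 called 0 and limma-voom 1, and the median was -0.14. Their mean level was 8.67 to 8.72 log2 CPM in fWBI libraries, against 8.74 to 8.88 in control libraries, a small difference without overlap whose part in the other results was not tested. SNAP25, a synaptic vesicle fusion protein, averaged 2736 ± 131 CPM in fWBI and 2828 ± 210.3 CPM in control animals (-0.047 ± 0.080), and SYT1, the calcium sensor of synaptic release, averaged 3275 ± 104 CPM in fWBI and 3280.0 ± 449 CPM in control animals. Of 18 interneuron genes 0 passed in edgeR, DESeq2 or limma-voom and 0 were past an unadjusted p of 0.05; GAD1 and GAD2, which make GABA, had fold changes of 0.16 ± 0.10 and 0.29 ± 0.14. Of 15 excitatory neuron genes 1 fell, NTNG2, an axon guidance protein (21.9 ± 2.22 CPM in fWBI and 36.7 ± 9.99 CPM in control animals; -0.74 ± 0.16, adjusted p = 0.0338). It missed the threshold without any 1 of the 5 fWBI animals and without control animal 3 (highest adjusted p 0.0816). NTNG2 also missed it with the 2 groups alone (0.0695), over all 45 libraries (0.0859) and with the myelin covariate (0.0860). Of 10 immediate early genes 1 fell: ARC, which neurons induce with activity, was at 28.1, 31.8, 28.4, 25.9 and 36.9 CPM in fWBI animals, against 77.3, 24.0, 89.7, 57.6 and 72.7 CPM in control animals. Control animal 2 lay below all fWBI animals and the other control animals above them (-1.09 ± 0.24, adjusted p = 0.0396). Among the fits without 1 library ARC passed only in that without control animal 2, and its adjusted p ran from 0.000248 to 0.104. It was 0.105 with the 2 groups alone, 0.110 over all 45 libraries and 0.0606 with the myelin covariate. Of 32 glutamate and GABA receptor genes 0 passed in edgeR, with 2 higher and 6 lower at an unadjusted p under 0.05, 1 called by DESeq2 and 0 by limma-voom; GRIA1 and GRIA2, subunits of AMPA receptors, had fold changes of -0.037 ± 0.13 and 0.035 ± 0.094. All 24 tested synaptic vesicle and postsynaptic density genes had a negative fold change, with a median of -0.25, but 0 passed in edgeR or DESeq2, 2 did in limma-voom, and 3 were lower at an unadjusted p under 0.05. Their mean level overlapped, at 6.70 to 7.46 log2 CPM in fWBI and 6.81 to 7.87 in control libraries. Of 11 neurotrophic genes 1 rose, NGFR, the low-affinity neurotrophin receptor (1.74 ± 0.245 CPM in fWBI and 0.637 ± 0.244 CPM in control animals; 1.44 ± 0.30, adjusted p = 0.0272). Among the fits that left out 1 library it missed the threshold without fWBI animal 1, 2, 3 or 5 or control animal 1 or 3 (highest adjusted p 0.0828), as it did over all 45 libraries (0.0859) and with the myelin covariate (0.0622).

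The lists for the DNA damage response, cell division and metabolism each had 0 to 2 members past the threshold. Over all genes tested 1.17% passed, so lists of this size can hold 0 without their genes being spared. Of 13 p53 targets 0 passed in edgeR, DESeq2 or limma-voom and 2 were higher at an unadjusted p under 0.05, with a median of 0.07; BAX, which promotes apoptosis, was at 7.11, 11.4, 11.0, 13.2 and 11.8 CPM in fWBI animals, against 7.39, 9.50, 9.24, 9.14 and 8.51 CPM in control animals, and BBC3 had a fold change of 0.22 ± 0.33. Of 24 DNA repair genes 0 passed in the 3 tools, 3 were higher and 1 lower at an unadjusted p under 0.05, and the damage kinases ATM and ATR had fold changes of 0.082 ± 0.080 and 0.020 ± 0.089. Of 19 cell cycle genes 0 passed in edgeR or limma-voom and DESeq2 called 1. TOP2A, the topoisomerase of dividing cells, averaged 2.34 ± 0.744 CPM in fWBI and 0.997 ± 0.536 CPM in control animals (1.26 ± 0.34, adjusted p = 0.0898), and CCNA2 had a fold change of -0.088 ± 0.17. Of 7 senescence and secreted factor genes 1 rose, IGFBP7, a secreted binding protein that vessels also make, at 56.7, 94.7, 78.1, 94.7 and 73.0 CPM in fWBI animals, against 29.1, 44.0, 43.0, 45.4 and 35.2 CPM in control animals (1.01 ± 0.18, adjusted p = 0.00943). Every fWBI library held more than any control library, but over all 45 libraries IGFBP7 did not pass (adjusted p = 0.434). Of 14 cholesterol biosynthesis genes 0 passed in the 3 tools and 2 were lower at an unadjusted p under 0.05. HMGCS1, a synthase early in the pathway, had a fold change of -0.15 ± 0.13. Of 18 antioxidant and iron genes 2 rose, GPX1, a glutathione peroxidase (0.84 ± 0.19, adjusted p = 0.0406), and SLC40A1, the iron exporter ferroportin (0.69 ± 0.14, adjusted p = 0.0270), and the list's median was 0.16. Of 19 lysosomal genes 1 rose, with a list median of 0.03, and this was NPC2, a cholesterol carrier (0.70 ± 0.16, adjusted p = 0.0461). SLC40A1 missed the threshold without fWBI animal 2 or 4 or control animal 3 or 4 (highest adjusted p 0.0833); among the same fits GPX1 passed only without control animal 4 or 5 (highest 0.112) and NPC2 only without control animal 2 (highest 0.126). With the 2 groups alone SLC40A1 (0.0782) and NPC2 (0.0834) missed the threshold, over all 45 libraries GPX1 (0.0862) and NPC2 (0.123), with the myelin covariate SLC40A1 (0.0753), GPX1 (0.0858) and NPC2 (0.0644), and without a filter NPC2 (0.0519). The lists of nuclear-encoded respiratory chain genes (19 tested), heat shock genes (15), neural progenitor genes (10), B cell genes (2) and choroid plexus genes (2) had 0 members past the threshold in edgeR, and 0, 2, 2, 0 and 1 members past an unadjusted p of 0.05, all of them lower. Of these lists DESeq2 and limma-voom each called 1 heat shock gene and 0 others.

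Several of the largest changes were in genes of no list above. NKAIN4, whose membrane protein interacts with a subunit of the sodium pump, had the largest fall: 0.379, 0.374, 0.651, 0.204 and 0.211 CPM in fWBI animals, against 6.03, 7.25, 4.29, 4.35 and 5.75 CPM in control animals. No fWBI library reached 1 CPM and no control library was below 4, so its fWBI level rested on few reads (-3.86 ± 0.32, adjusted p = 5.80e-06). ENPEP, an aminopeptidase that cleaves angiotensin and is a marker of pericytes, was at 1.52, 1.31, 1.77, 1.43 and 0.950 CPM in fWBI animals, against 3.69, 6.95, 4.19, 11.1 and 8.51 CPM in control animals (-2.28 ± 0.31, adjusted p = 0.00132), with no overlap. The kinase STK32A (-1.95 ± 0.24, adjusted p = 0.000393) and the cohesin subunit STAG3, known from meiosis (-1.93 ± 0.35, adjusted p = 0.0125), also fell and passed in each fit without 1 library. NEU4, a sialidase, fell by 1.72 on the log2 scale (SE 0.35, adjusted p = 0.0251) and missed the threshold without fWBI animal 2 or 3 or control animal 3 or 4 (highest adjusted p 0.0781). FERMT1, the integrin adaptor kindlin-1, fell by 1.53 (SE 0.32, adjusted p = 0.0274) and missed it without fWBI animal 1, 2, 3 or 5 (highest 0.0838). Both also missed it with the 2 groups alone (NEU4 0.0734, FERMT1 0.0945) and over all 45 libraries (NEU4 0.132, FERMT1 0.0858), and FERMT1 with the myelin covariate (0.0832). A U1 spliceosomal RNA fell too (-1.53 ± 0.29, adjusted p = 0.0155; 0.00552 to 0.0580 in the fits without 1 library, above the threshold without control animal 3), but 87 gene IDs carry this symbol and can share reads, so this value is uncertain.

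Among the rises outside the lists, CPZ, a secreted carboxypeptidase, was at 4.45, 6.54, 3.25, 5.30 and 5.07 CPM in fWBI animals, against 0.246, 0.685, 0.381, 1.20 and 0.805 CPM in control animals (2.91 ± 0.61, adjusted p = 0.0272). The groups did not overlap, yet CPZ missed the threshold without fWBI animal 1, 2 or 4 or control animal 1, 3 or 5 (highest adjusted p 0.0828). RUNX1, a transcription factor of blood cell development, averaged 2.21 ± 0.368 CPM in fWBI and 0.390 ± 0.164 CPM in control animals (2.42 ± 0.39, adjusted p = 0.00537). DNASE2B, an acid endonuclease, was at 1.80, 1.77, 1.58, 1.53 and 1.69 CPM in fWBI animals, against 0.369, 0.392, 0.381, 0.150 and 0.345 CPM in control animals, with the fWBI animals close together and apart from the control animals (2.27 ± 0.26, adjusted p = 0.000197). Of the 182 genes that changed 44 had no symbol. Of these the smallest p-values among genes that rose belonged to ENSMMUG00000017215 (1.76 ± 0.22) and ENSMMUG00000005534 (2.44 ± 0.33), and among those that fell to ENSMMUG00000015707 (-2.05 ± 0.16) and ENSMMUG00000012220 (-1.39 ± 0.23).

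The fWBI animals were also set against the TBI animals in prefrontal cortex, a comparison in which dose, its delivery and the time since exposure differ together and cannot be told apart. It called 45 genes (0.29% of 15531), 33 higher (0.212%) and 12 lower (0.0773%) in fWBI. Among genes with a symbol and a mean of at least 1 CPM, the 3 largest rises were CLEC7A (3.54 ± 0.48, adjusted p = 0.00162), COL3A1 (2.49 ± 0.34, adjusted p = 0.00162) and COL1A1 (2.30 ± 0.43, adjusted p = 0.0217), and the 3 largest falls NKAIN4 (-2.65 ± 0.33, adjusted p = 0.00111), GPR17 (-2.20 ± 0.27, adjusted p = 0.000968) and OLIG2 (-2.12 ± 0.16, adjusted p = 4.14e-06). OLIG2 averaged 5.72 ± 1.03 CPM in fWBI and 24.9 ± 5.37 CPM in TBI animals, next to 27.4 ± 2.75 CPM in control animals, and P2RY12 averaged 13.8 ± 1.99 CPM in fWBI and 36.4 ± 11.7 CPM in TBI animals, next to 46.6 ± 4.49 CPM in control animals. CD74 stood at 58.9 ± 11.7 CPM in fWBI, 12.3 ± 7.18 CPM in TBI and 8.35 ± 2.38 CPM in control animals. The count was 27 without fWBI animal 2 and 29 without TBI animal 2.

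TBI against control, which shares the control animals, called 0 genes in edgeR, with 1826 at an unadjusted p under 0.05, while DESeq2 called 254 and limma-voom 162. The 2 comparisons with control are therefore given side by side. GPR17 had a fold change of -3.08 ± 0.26 in fWBI and -0.88 ± 0.22 in TBI (adjusted p = 0.126), and NKAIN4 of -3.86 ± 0.32 in fWBI and -1.21 ± 0.25 in TBI (adjusted p = 0.0985). SERPINA3 averaged 43.4 ± 21.3 CPM in fWBI and 20.1 ± 23.6 CPM in TBI animals (4.82 to 61.5 CPM), against 3.63 ± 2.32 CPM in control animals. For ARC the means were 30.2 ± 4.26 CPM in fWBI, 27.1 ± 3.64 CPM in TBI and 64.2 ± 25.3 CPM in control animals, and for NTNG2 they were 21.9 ± 2.22, 21.2 ± 3.88 and 36.7 ± 9.99 CPM in the same order, so that in both genes the control animals had the highest mean. COL3A1 averaged 116 ± 56.0 CPM in fWBI, 20.6 ± 8.30 CPM in TBI and 21.0 ± 5.49 CPM in control animals.

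The fWBI effect in prefrontal cortex was compared with that in the other regions of the same animals by an interaction term over all 45 libraries with animal as a block. Against hippocampus 0 of 16614 genes differed in edgeR, and 302 (1.82%) did at an unadjusted p under 0.05. DESeq2 and limma-voom were not run on this difference. In simulated data this test recovered 90% of 4-fold and 57% of 2-fold differences, put into genes of at least 1 CPM. The 302 genes were fewer than an unadjusted threshold of 0.05 gives by chance. Recovery in these data may thus be lower than in the simulation. Differences of 2-fold or less, and some larger ones, could be missed. In hippocampus itself 114 genes were called (0.742%), and the fold change there was -1.50 ± 0.27 for OLIG2, -2.50 ± 0.30 for GPR17, -1.93 ± 0.17 for P2RY12, 3.19 ± 0.37 for CD74 and 2.75 ± 0.41 for COL3A1, next to -2.26 ± 0.16, -3.08 ± 0.26, -1.75 ± 0.18, 2.82 ± 0.31 and 2.46 ± 0.34 in prefrontal cortex. Other genes lay further apart: the fold change was 2.21 ± 0.31 in prefrontal cortex and 0.68 ± 0.27 in hippocampus for MAMU-DMB (unadjusted p of the difference 0.000242), 1.08 ± 0.21 and 0.42 ± 0.18 for GFAP (unadjusted p 0.00882), and 1.01 ± 0.18 and -0.19 ± 0.74 for IGFBP7 (unadjusted p 0.238). The adjusted p of these differences was 1. IQGAP2, chosen after its values were seen, had fold changes of 1.305 ± 0.20 in prefrontal cortex and -0.054 ± 0.14 in hippocampus. By the same interaction test its difference had an unadjusted p of 1.3e-05 and an adjusted p of 0.217.

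Against white matter the fWBI effect differed in 1664 of 16614 genes (10%), 904 with a higher (5.44%) and 760 with a lower value (4.57%) in prefrontal cortex. White matter itself had 2567 calls (16.8%). The white matter libraries of control animals 1 and 3 held pan-neuronal transcripts at a mean of 8.47 and 7.44 log2 CPM, against 4.62 to 5.52 in fWBI libraries and 4.84 to 5.24 in the other control libraries. Without these 2 animals 956 genes differed, 372 higher and 584 lower. MYT1 and TNR, a transcription factor and a matrix protein of the oligodendrocyte lineage, were among the 3 largest positive differences of genes with a symbol and a mean of at least 1 CPM (3.60 ± 0.33 and 3.84 ± 0.41): their fold changes were -0.88 ± 0.23 and -0.90 ± 0.30 in prefrontal cortex, against -4.45 ± 0.28 and -4.61 ± 0.31 in white matter. PCDH15 differed likewise (2.87 ± 0.39), whereas OLIG2 fell further in prefrontal cortex (difference -1.58 ± 0.28; -2.26 ± 0.16 in prefrontal cortex and -0.70 ± 0.17 in white matter). Without control animals 1 and 3 the differences were 3.03 ± 0.43 for PCDH15 and -1.31 ± 0.27 for OLIG2. For MYT1, TNR and the other largest differences in either direction, values without these animals are not given here. SELPLG fell in prefrontal cortex and had a fold change of 0.14 ± 0.23 in white matter (difference -2.49 ± 0.28). The third of the largest positive differences was in the amino acid transporter SLC7A10 (3.33 ± 0.74), which had too few counts to be tested within white matter alone. Under the same limits the largest negative differences were in CDH1, E-cadherin (-6.69 ± 0.83), with fold changes of -0.17 in prefrontal cortex and 6.74 in white matter, and in CHIT1 (-6.42 ± 2.07) and ITGAX (-5.93 ± 1.83), macrophage genes with too few counts to be tested in prefrontal cortex. LYZ (-2.79 ± 0.34), GPX1 (-2.44 ± 0.26) and CD93 (-2.19 ± 0.35) rose less in prefrontal cortex than in white matter. GFAP, VCAM1, FN1, CD74 and P2RY12 did not pass the test of the difference, with values of -0.20 ± 0.23, -0.061 ± 0.25, -0.022 ± 0.23, -0.26 ± 0.35 and -0.38 ± 0.22.

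**Figure D5:**
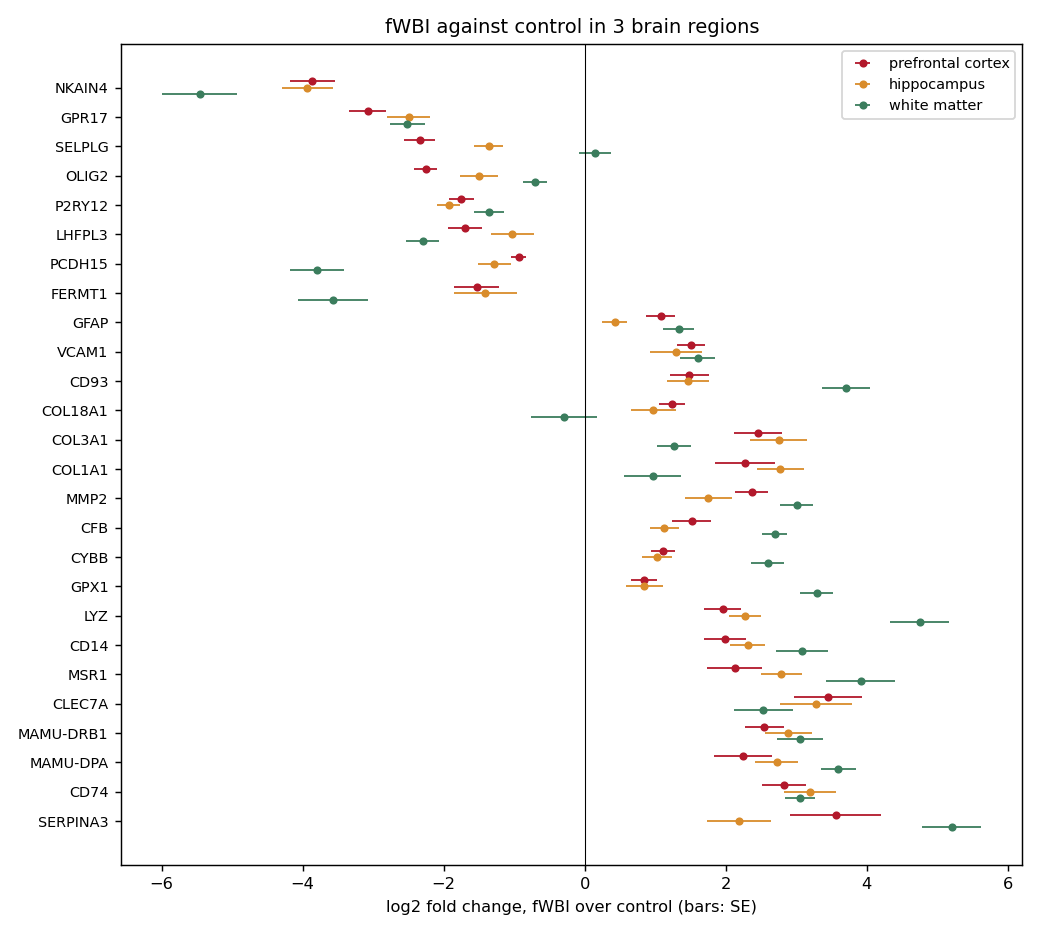
Log2 fold change of fWBI over control (horizontal axis, bars are SE) for 26 genes in prefrontal cortex, hippocampus and white matter, each from a fit within its region. For OLIG2 the points lie at -2.26, -1.50 and -0.70, for SELPLG at -2.34, -1.37 and 0.14, and for LYZ at 1.96, 2.27 and 4.75, in the order prefrontal cortex, hippocampus and white matter.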

How the data were processed

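RNA-seq read counts per gene of 45 libraries (3 groups of 5 rhesus macaques, 3 brain regions) were used. The authors deposited whole-number counts for 30246 Ensembl gene IDs, of which 15769 carried a symbol, from total RNA prepared with a stranded, ribosome-depleted kit. FastQC, STAR, featureCounts and DESeq2 are named per the submitters' processing notes, with no versions. Neither the genome build nor how the counting treated strand is given in the sources used here, so overlapping and antisense genes cannot be told apart.

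Counts were analysed with edgeR 4.0.16 (limma 3.58.1, R 4.3.3): TMM scaling, filterByExpr, glmQLFit and two-sided glmQLFTest on the 15 prefrontal cortex libraries, which share 1 estimate of the spread, with Benjamini-Hochberg adjustment over all genes tested. The list levels are means of log2 CPM with a prior count of 2. In simulated counts over 15374 genes the test recovered 98% of genes changed 4-fold and 72% of those changed 2-fold. Differences between regions were interaction terms over all 45 libraries with animal as a block. Alternatives were DESeq2 1.42.0, limma-voom, other filters, scalings and covariates, and fits without each library in turn. fWBI and control animals are different animals that the labels join only by number, so they were not paired. No 2 prefrontal cortex libraries of 1 group agreed within sampling noise.

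Members and gene lists were chosen with earlier results of these data known. The genes named were the 12 largest rises and 12 largest falls among called genes that had a symbol, averaged 1 CPM or more and did not overlap between the groups, up to 3 called members per list, the first 2 tested members of described lists with none called, and the 3 largest in each direction for fWBI against TBI and for the difference from white matter. PDGFRA, CSPG4, CSF1R, GPNMB, APOE, CD163, MRC1, SIGLEC1, STAB1, CIITA, C3, C1QC, VIM, SLC1A2, SLC1A3, CLEC1A, CDH5 and PECAM1, where the rule did not name them, were chosen after their values were seen. A few genes falling under it are left out here. Sex-linked genes of the lists were not analysed here, and no gene of the blood cell list had enough counts to be tested.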

Additional observations from a re-analysis of the deposited data

Results flagged for a closer look

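In 9 of 142 sets of 5 libraries, made of the fWBI or the control animals for each of 71 named genes, 1 library lay further from the others than the 95% limit for 5 values. Chance gives about 1 in 20 sets, here 7.1. Among control animals, animal 4 held 0.150 CPM of DNASE2B, against 0.345 to 0.392 in the others, and 15.6 CPM of MAMU-DPA, against 4.43 to 5.75. Control animal 1 held 8.25 CPM of STAG3 (3.13 to 4.26 in the others) and 68.9 CPM of PDGFRB (26.1 to 37.9). FERMT1 was at 5.78 CPM in control animal 2 (1.96 to 2.25 in the others), U1 at 7.14 CPM in control animal 3 (3.75 to 4.49), and BBC3 at 0.805 CPM in control animal 5 (2.19 to 2.70). Among fWBI animals, TIMP4 was at 5.07 CPM in animal 5 (3.72 to 4.07 in the others) and GAD1 at 482.6 CPM in animal 3 (394 to 418).

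Among the 51 named genes that passed the threshold, the fWBI effect differed between prefrontal cortex and white matter in 17, by edgeR's quasi-likelihood test of the interaction with Benjamini-Hochberg adjustment over all genes. The effect was higher in prefrontal cortex for PCDH15 (difference 2.87, adjusted p = 1.55e-05), CPZ (2.58, adjusted p = 0.0488), FERMT1 (2.21, adjusted p = 0.00553), TIMP4 (1.58, adjusted p = 0.00195) and COL18A1 (1.22, adjusted p = 0.0259). It was lower in prefrontal cortex for DNASE2B (-3.64, adjusted p = 0.00137), LYZ (-2.79, adjusted p = 2.96e-06), SELPLG (-2.49, adjusted p = 5.03e-07), GPX1 (-2.44, adjusted p = 3.06e-07) and CD93 (-2.19, adjusted p = 0.000113). The same direction was found for MSR1 (-1.75, adjusted p = 0.0140), OLIG2 (-1.58, adjusted p = 0.000375), CYBB (-1.48, adjusted p = 0.00199), MAMU-DPA (-1.31, adjusted p = 0.0107), STK32A (-1.28, adjusted p = 0.0188), CFB (-1.17, adjusted p = 0.00917) and CD14 (-1.09, adjusted p = 0.0341). Without control animals 1 and 3, whose white matter libraries held neuronal transcripts, CPZ (adjusted p = 0.0921), DNASE2B (0.0527) and STK32A (0.0765) no longer passed, while ENPEP (difference -3.23, adjusted p = 0.0497, against -1.43 with them), VCAN (0.87, adjusted p = 0.0208) and AQP4 (0.58, adjusted p = 0.0462) did. CPZ and ENPEP had too few counts to be tested within white matter alone, so no white matter fold change stands beside their differences.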

How the results depend on the processing

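For fWBI against control the 182 calls became 466 with DESeq2 (271 higher and 195 lower), 387 with limma-voom (233 and 154) and 11 with a log2 fold minimum of 1. They were 184 with DESeq2 size factors, 149 without a filter, 184 with a minimum of 1 CPM, 122 with the 2 groups alone, 181 with all 45 libraries (103 and 78) and 127 with the myelin level as a covariate. Leaving out 1 library gave 73 (without control animal 3) to 220. The numbers of fWBI and control animals mark different animals, and pairing was not used. Deviations from the group mean in fWBI animals 1, 2 and 4 correlated most with the control animal of the same number (r = 0.36, 0.34 and 0.36). Those of fWBI animals 3 and 5 did not (r = 0.09 and -0.08 with the same number). Whether the numbers track a shared step of processing was not tested. With the replicate block the count was 293. The cause of these changes was not tested.

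For fWBI against TBI the 45 calls became 93 with DESeq2 and 61 with the replicate block, and 27 to 54 without 1 library. For the difference from white matter the 1664 calls became 554 with only the 2 regions and 2 groups, 956 without control animals 1 and 3, and 1022 to 2150 without 1 animal. The difference from hippocampus was 0 under each of 13 alternatives, all in edgeR.

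Of the 51 changed genes that the naming rule gave, 37 also passed over all 45 libraries, 41 with the myelin covariate, 42 with the 2 groups alone, 49 without a filter and 10 with the log2 fold minimum. Of the 182 called genes 0 changed direction under any setting run. Genes that did not pass and lie near 0 did change sign. Without 1 library SYT1 ran from -0.083 to 0.029, GRIA1 from -0.10 to 0.044, GRIA2 from -0.026 to 0.062, CCNA2 from -0.18 to 0.024, ATR from -0.014 to 0.066, IFI6 from -0.23 to 0.053 and TAPBP from -0.27 to 0.034. SYT1 was also at 0.016 without a filter and 0.0049 with the replicate block, GRIA1 at 0.033, GRIA2 at -0.00019 and CCNA2 at 0.021 with limma-voom, and GRIA2 at -0.020 with the myelin covariate.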

Other observations

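Genes in none of the lists also changed, and those named here were chosen after their values were seen, from the genes that passed in each of the 10 fits without 1 library. ALDH1A2 and ALDH1A3, a pair of enzymes that make retinoic acid, rose by 1.41 ± 0.25 and 1.07 ± 0.18 on the log2 scale. TBX18, a transcription factor of pericytes and other mural cells (1.29 ± 0.23), ASPN, a small matrix proteoglycan (1.88 ± 0.30), and ITIH2, a heavy chain carried by hyaluronan (1.79 ± 0.33), rose as well. ALDH1A2 was at 7.01, 8.60, 7.81, 11.4 and 10.7 CPM in fWBI animals, against 2.22, 4.11, 4.19, 2.85 and 3.57 CPM in control animals, with no overlap. CPVL, a carboxypeptidase (2.16 ± 0.37), CD84, a leukocyte surface receptor (1.57 ± 0.28), the scavenger receptors CD163L1 (1.14 ± 0.17) and COLEC12 (0.86 ± 0.14), and DAB2, an endocytic adaptor (0.71 ± 0.13), rose too. SAMD9L and FAM111A, both known to restrict viruses, rose by 0.98 ± 0.17 and 0.80 ± 0.13.

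Among the falls, MEIS3, a homeobox transcription factor, averaged 11.1 ± 4.63 CPM in fWBI, 11.1 ± 3.53 CPM in TBI and 31.8 ± 7.02 CPM in control animals (-1.52 ± 0.28 for fWBI over control). SYT12, a synaptotagmin of synaptic vesicles (-0.73 ± 0.13), SULF2, which trims sulphate from heparan sulphate (-0.68 ± 0.12), TRAF4, a signalling adaptor (-0.82 ± 0.15), and RNF112, a ubiquitin ligase of brain (-0.52 ± 0.10), fell too. In TBI over control the fold changes were -0.58 ± 0.13, -0.30 ± 0.12, -0.33 ± 0.14 and -0.54 ± 0.097 in the same order, and none passed the threshold. All of the changes of fWBI over control given here passed edgeR's quasi-likelihood test after Benjamini-Hochberg adjustment, and none was tested in other animals.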
